A study of Schizosaccharomyces pombe with 8 samples.

Results

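Amino acid biosynthesis is carried out by enzymes that free-living yeasts make for themselves when the medium offers no amino acids. Carbon skeletons from central metabolism receive nitrogen through glutamate and glutamine, and each amino acid is then finished by its own short series of reactions. The genes named lys, arg, met and so on were mostly found as mutants that need that amino acid, so the name marks a requirement and a few of the products are not enzymes of the pathway. The expression of these genes was followed in fission yeast (Schizosaccharomyces pombe) cells that responded to a mating pheromone.

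Members were the protein-coding genes whose symbol is lys, his, arg, ilv, leu, trp, aro, met, thr, ser, cys or pro followed by 1 or 2 digits and nothing else, together with gln1. The gene table held 62 such genes, of which 59 had spots of their own among 4751 measured genes. The spot annotation used here assigned no spot to his6 or ilv3, and leu3 lay only on spots assigned to several genes, so these 3 were not analysed here. The members fell into 13 groups by amino acid, each member was measured by 2 spots, and 56 had a ratio on all 6 time course arrays. aro2, his4 and his5 lacked at least 1 of these ratios and were left out of the tests.

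The data were 8 two-colour arrays of PCR products. M-factor was given to P cells, of genotype h+ cyr1, and P-factor to M cells, of genotype h- cyr1 sxa2. Each was used at 1 μg/ml in minimal medium, and RNA taken at 2, 4 and 6 h was compared with the 0 h RNA of the same culture. Another 2 arrays compared M cells with P cells directly, untreated and after 6 h with pheromone. All strains carried Δmat2,3::LEU2, ura4-D18 and cyr1::ura4+, so none made adenylate cyclase, the cyr1 product, whose loss lets cells respond without nitrogen starvation. The M cells also lacked sxa2, the protease that degrades P-factor, so pheromone, mating type and sxa2 cannot be told apart in any comparison of the courses.

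A value is the log2 of the ratio of the RNAs, so that -1 is a level at 50% of the reference, and the mean of a gene's spots was used. Each time point had 1 array, and the 3 time points of a course stood in for replicates. The p-values therefore measure the spread between time points and not that between cultures, and the arrays of a course share the same 0 h RNA. The labels were checked against known genes. fus1, rep1, mei2 and ste11, which belong to the pheromone response, had positive ratios on all 6 time course arrays. The M cell genes mam1, mam2 and mam3 were above 0 and the P cell genes map2 and map3 below 0 on both arrays of M over P cells, from 0.47 to 2.15 and from -2.94 to -1.23 when untreated. In the time courses mam1, mam2 and mam3 had means of 1.02, -0.16 and 1.60 with M-factor, against 3.17, 4.54 and 5.94 with P-factor. For map2 and map3 the means were 3.16 and -0.35 with M-factor, against 0.29 and -0.08 with P-factor. Thus mam1 and mam3 also rose in P cells, and map3 did not rise with M-factor on the time course arrays. The M over P ratio of map3 went from -1.23 untreated to -3.53 treated. The time course and the M over P arrays thus differ on map3, and the reason was not tested. The array medians over all genes lay between -0.03 and 0.04 on the time course arrays. A fall in such a ratio can come from fewer transcripts per cell or from a smaller share of cells that carry them, and these cannot be told apart here.

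The amino acid genes lay lower after treatment with either pheromone. With M-factor, 39 of the 56 tested members fell, 5 rose and 12 did not pass the test (limma, adjusted p at most 0.05). Over all 4093 genes tested, 23.2% fell and 24.1% rose. With P-factor, 31 members fell, 2 rose and 23 did not pass, against 18.3% of all genes that fell and 18.1% that rose. The median ratio of the members came to -0.71 under M-factor and to -0.52 under P-factor, while that of all genes tested was -0.02 in both courses. All 6 ratios were below 0 for 34 members and above 0 for 4, against 21.3% and 21.1% of all genes. The P-factor count depended on which array was left out. Without the P-factor 2, 4 or 6 h array 25, 14 or 20 members were called, and without any 1 M-factor array 34 were. The calls over all genes also dropped in the fits without a P-factor array, from 741 higher and 750 lower to 313 and 234 without the 4 h array.

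The shift was present on each array. The median over the members at 2, 4 and 6 h was -0.72, -0.59 and -0.64 under M-factor, against -0.41, -0.62 and -0.63 under P-factor. On the 6 arrays between 44 and 49 members had a ratio below 0. These were 74.6% to 83.9% of the members measured, against 47.3% to 52.4% of all genes. The M-factor 2 h array carried the treated RNA in Cy5 and all others in Cy3, and the members lay lower on both kinds of array.

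**Figure D1:**
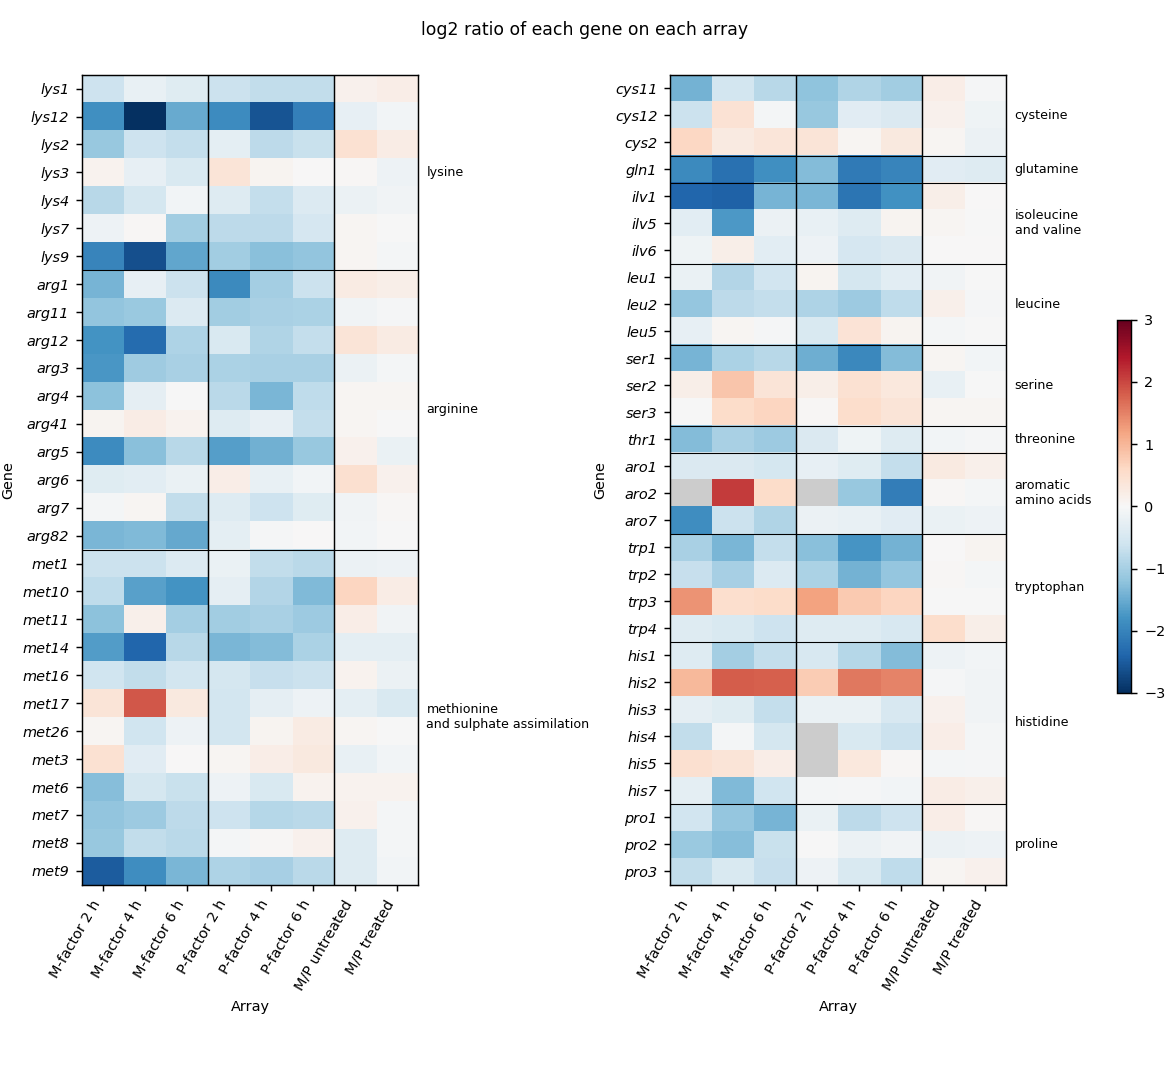
Each row is a gene, grouped by amino acid, and each column an array. The colour gives the log2 ratio, blue below 0, red above 0 and grey where the table has no ratio. Most rows are blue on the 6 time course arrays and pale on the M over P arrays, with his2 and trp3 red on all 6.

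Some members changed by more. At least 2-fold lower at 2, 4 and 6 h were 6 of 58 members with M-factor (arg82, gln1, ilv1, lys12, lys9 and met9) and 7 of 56 with P-factor (arg5, gln1, ilv1, lys12, lys9, ser1 and trp1). By the same rule 2.6% of all genes were lower with M-factor and 2.34% with P-factor. No member was at least 2-fold higher at all 3 times, against 4.25% and 3.24% of all genes. gln1, ilv1, lys12 and lys9 met the rule in both courses.

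gln1 encodes glutamine synthetase, which joins ammonium to glutamate and so makes the nitrogen donor for several of the other pathways. Its log2 ratio at 2, 4 and 6 h was -1.90, -2.24 and -1.84 under M-factor, against -1.31, -2.13 and -1.97 under P-factor. All 6 ratios lay beyond 2-fold. The mean was -1.99 ± 0.18 (SE) with M-factor and -1.80 ± 0.18 with P-factor, a fall of 3.98-fold and 3.49-fold (limma, adjusted p = 8.25e-05 and 0.000224). The spots at 4 h of M-factor stood at -1.32 and -3.15, so that the size there is loosely known.

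Of the 7 lysine genes, 5 fell with M-factor and 6 with P-factor. Fungi make lysine through aminoadipate, and lys12 encodes the homoisocitrate dehydrogenase of this route. Its ratio was -1.85, -4.87 and -1.52 under M-factor, against -1.88, -2.60 and -2.06 under P-factor. The span of lys12 overlaps that of rpe1, whose means were -0.99 and -1.13. lys12 was the lowest member in both courses, with means of -2.75 ± 0.52 and -2.18 ± 0.52 (limma, adjusted p = 0.00257 and 0.0114). The fit uses a spread shared by the courses, so the SE with P-factor also reflects the wider M-factor values. The M-factor mean leaned on the 4 h array, where the spots gave -3.44 and -6.31, and was -1.68 without it. Without the P-factor 4 h array the call with P-factor was lost (adjusted p = 0.0806).

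lys9, a saccharopine dehydrogenase gene of the last steps, stood at -1.99, -2.64 and -1.56 with M-factor and at -1.04, -1.25 and -1.18 with P-factor. The ranges of the courses did not overlap, and the means were -2.06 and -1.16 (limma, adjusted p = 9.44e-05 and 0.00255). The difference of 0.91 between the courses did not pass the test (limma, adjusted p = 0.0864). lys1 (aminoadipate reductase), lys2 (homoaconitase) and lys4 (homocitrate synthase) fell in both courses, with means between -0.39 and -0.83. lys7, which activates the aminoadipate reductase, fell with P-factor to -0.70 and stood at -0.39 with M-factor. lys3, the other saccharopine dehydrogenase gene, passed in neither course, with means of -0.20 and 0.16. The span of lys1 overlaps that of prm1, a gene whose ratios lay between 1.67 and 3.83 on the time course arrays.

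**Figure D2:**
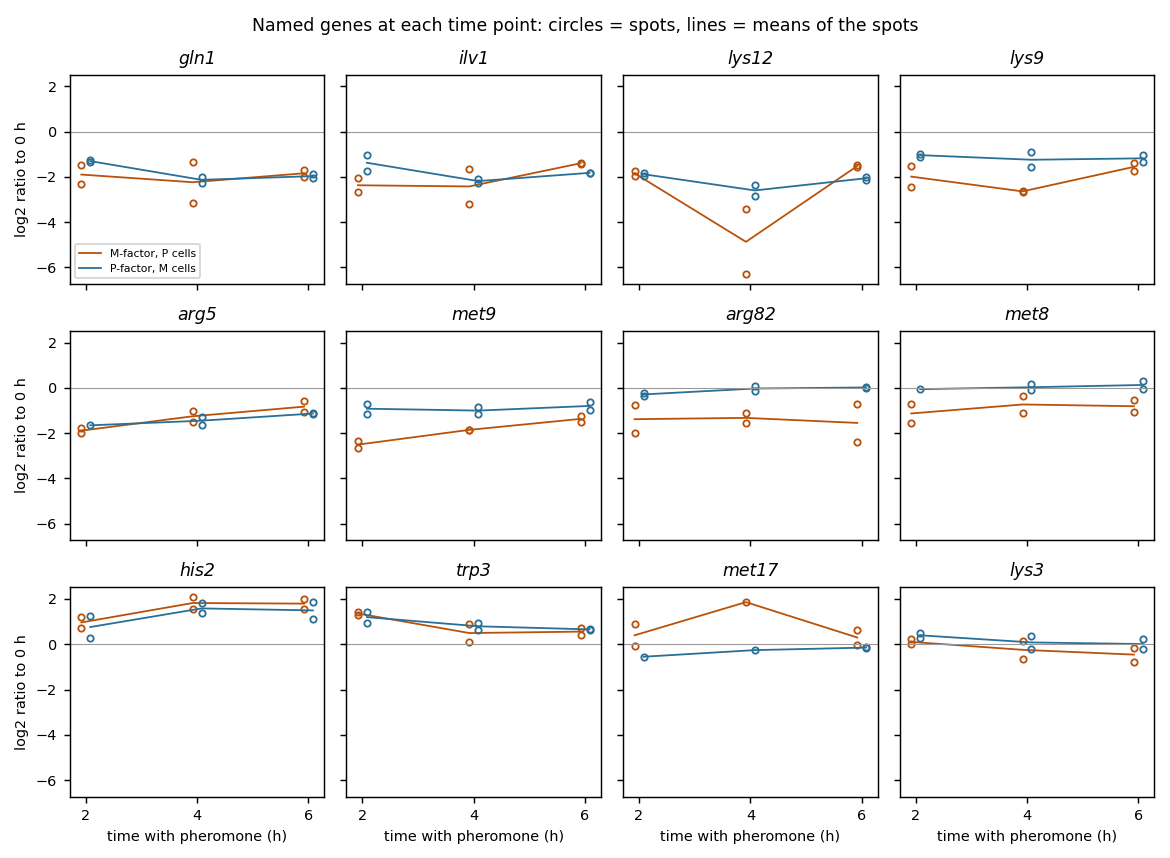
The log2 ratio to 0 h is plotted against time with pheromone for 12 members, with M-factor in orange and P-factor in blue. Circles are spots and lines join their means. gln1, ilv1, lys12 and lys9 lie below -1 throughout, arg82 and met8 fall with M-factor alone, and lys12 at 4 h of M-factor has the widest gap between spots.

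The 10 arginine genes included 6 that fell under M-factor and 7 under P-factor. None rose. arg5, the small subunit of the carbamoyl phosphate synthase of this pathway, stood at -1.89, -1.25 and -0.83 with M-factor and at -1.65, -1.45 and -1.13 with P-factor. Its means were -1.32 and -1.41 (limma, adjusted p = 0.000967 and 0.00118). arg4, the large subunit, fell with P-factor to -0.98 and had a mean of -0.50 with M-factor that did not pass (adjusted p = 0.101). arg1, arg3, arg11 and arg12, which encode enzymes from acetylornithine formation to argininosuccinate synthase, fell in both courses. arg12 had the lowest mean of the group with M-factor, -1.68, and stood at -0.69 with P-factor. Its P-factor call (limma, adjusted p = 0.0461) was lost with any 1 P-factor array left out (adjusted p up to 0.223). It was also lost with the spot nearest 0, with each array centred on its median and without the M-factor 2 h array.

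The argininosuccinate lyase genes were less clear. arg7 passed in neither course, and arg41 fell only with P-factor, to -0.45, with a mean of 0.14 under M-factor. The arg41 call (limma, adjusted p = 0.0398) was lost with any 1 P-factor array left out and with the spot nearest 0 (adjusted p = 0.315). Cross-hybridisation between these related genes was not tested. arg6, the acetylglutamate synthase gene of the first step, had means of -0.30 and -0.04 that did not pass. arg3 and arg11 lie next to each other on the chromosome, as do met6 and ilv5.

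arg82 carries an arg name but encodes an inositol polyphosphate multikinase, which makes signalling molecules. Its ratio was -1.38, -1.32 and -1.55 under M-factor, against -0.29, -0.03 and 0.02 under P-factor. The 3 M-factor values all lay more than 1 below the 3 P-factor values. The mean was -1.42 ± 0.14 with M-factor (limma, adjusted p = 0.000111) and -0.10 ± 0.14 with P-factor (adjusted p = 0.609). The difference of 1.32 ± 0.20 passed the test (limma, adjusted p = 0.0169).

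Of the 12 methionine and sulphate assimilation genes, 9 fell and 1 rose with M-factor, and 7 fell with P-factor. met9 encodes a methylenetetrahydrofolate reductase, which supplies the methyl group of methionine. It stood at -2.50, -1.85 and -1.37 with M-factor and at values between -1.003 and -0.80 with P-factor, with means of -1.91 and -0.91 (limma, adjusted p = 0.000145 and 0.00874). met14 (adenylylsulphate kinase), met16 (phosphoadenylylsulphate reductase) and met10 (a sulphite reductase subunit), which act in the reduction of sulphate, fell in both courses. Their means were -1.63, -0.63 and -1.39 under M-factor, against -1.21, -0.62 and -0.82 under P-factor. met1, met7 and met11 also fell in both, while met6 fell with M-factor and was not called with P-factor.

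met8 serves the synthesis of sirohaem, the cofactor of sulphite reductase. Its ratio was -1.13, -0.73 and -0.81 under M-factor, against -0.06, 0.03 and 0.13 under P-factor. The courses did not overlap, and their difference of 0.92 ± 0.20 passed the test (limma, adjusted p = 0.0388). The spans of met8 and sum1 overlap, and sum1 had means of -0.04 and -0.54.

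met17, the homocysteine synthase gene, went the other way. It stood at 0.39, 1.86 and 0.30 with M-factor and at -0.55, -0.26 and -0.15 with P-factor. The mean of 0.85 with M-factor passed the test (limma, adjusted p = 0.0294), but the 4 h value came from 1 spot, the spots at 2 h stood at -0.09 and 0.88, and the mean was 0.35 without the 4 h array. met3 (cystathionine gamma-synthase) and met26 (methionine synthase) passed in neither course, with means between -0.23 and 0.19. Of the 3 cysteine genes, cys11, a cysteine synthase gene, fell in both courses to -0.94 and -1.05. cys12 passed in neither course, and cys2 had a mean of 0.42 with M-factor (limma, adjusted p = 0.0386) and of 0.24 with P-factor. The cys2 call was lost with any of the 6 arrays left out (adjusted p from 0.0502 to 0.145), and with the spot nearest 0 the mean was 0.10.

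ilv1 encodes the catalytic subunit of acetolactate synthase, the enzyme that starts valine synthesis and serves isoleucine as well. It stood at -2.37, -2.42 and -1.40 with M-factor and at -1.38, -2.19 and -1.83 with P-factor. Its means of -2.07 and -1.80 correspond to falls of 4.19-fold and 3.48-fold (limma, adjusted p = 0.00018 and 0.000682). ilv6, the regulatory subunit of the same enzyme, had means of -0.09 and -0.37, and neither passed. ilv5, the reductoisomerase gene, fell with M-factor to -0.74, a call that rested on the 4 h array (-0.25 and adjusted p = 0.302 without it).

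Among the 3 leucine genes, leu2, the isopropylmalate dehydratase gene, fell in both courses to -0.89 and -0.93. leu1, the isopropylmalate dehydrogenase gene, fell with M-factor to -0.55. leu5 encodes a mitochondrial carrier and not an enzyme of the pathway. Its means were -0.07 and 0.02, and its span overlaps that of ras1.

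The serine genes did not move together. ser1, the phosphoserine aminotransferase gene, stood at -1.39, -0.94 and -0.84 with M-factor and at -1.46, -1.92 and -1.31 with P-factor. Its means of -1.05 and -1.56 passed in both courses (limma, adjusted p = 0.00134 and 0.000341). The ser1 spots at 4 h of M-factor stood at 0.10 and -1.98. With the spot nearest 0 the M-factor call was lost (limma, adjusted p = 0.0689). ser2, the phosphatase gene that completes the route, had ratios from 0.17 to 0.82 and rose with M-factor to 0.46 (limma, adjusted p = 0.0397, and 0.205 without the 4 h array). The span of ser2 overlaps that of SPBC3H7.08C, whose means were 2.73 and 2.15. ser3, the phosphoglycerate dehydrogenase gene of the first step, had means of 0.40 and 0.32 that did not pass. thr1, the homoserine kinase gene, stood at -1.30, -0.98 and -1.09 with M-factor and fell (mean -1.12), while its mean with P-factor was -0.31 (adjusted p = 0.118). The thr1 difference of 0.81 missed the threshold (limma, adjusted p = 0.0555) and passed with time point as a block (adjusted p = 0.0495). It did not pass with any 1 array left out (limma, adjusted p from 0.0688 to 0.219) or with the spot nearest 0 (adjusted p = 0.17).

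Most of the tryptophan genes fell. trp1, a multifunctional enzyme gene, stood at -0.98, -1.36 and -0.71 with M-factor and at -1.26, -1.77 and -1.42 with P-factor, with means of -1.02 and -1.48 (limma, adjusted p = 0.0015 and 0.000428). trp2 (tryptophan synthase) and trp4 (anthranilate phosphoribosyltransferase) also fell in both courses. trp3, which encodes the anthranilate synthase component that begins the tryptophan branch, had ratios of 1.36, 0.49 and 0.56 with M-factor and of 1.20, 0.79 and 0.66 with P-factor. It rose in both, with means of 0.80 and 0.88 (limma, adjusted p = 0.00921 and 0.00899), and all 6 ratios were above 0. The M-factor call was lost with the spot nearest 0 (limma, adjusted p = 0.0683). The P-factor call was lost without the P-factor 2 h array (limma, adjusted p = 0.06). The span of trp3 overlaps that of rpb3, whose means were 0.67 and 0.41.

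aro1, whose product carries out the central steps toward chorismate, had means of -0.46 and -0.44 that passed (limma, adjusted p = 0.0281 and 0.0424). With 1 array of the same course left out neither call held (adjusted p from 0.0582 to 0.0945 with M-factor and from 0.0649 to 0.302 with P-factor). aro7, the chorismate mutase gene, fell with M-factor to -1.13. Its spots at 2 h stood at -3.14 and -0.57, and with the spot nearest 0 the mean was -0.42 and the call was lost (limma, adjusted p = 0.0837). Without the 2 h array the mean was -0.77 and the call held. The span of aro7 overlaps that of gna1, whose mean was 1.20. aro2, the chorismate synthase gene, was measured on 4 of the time course arrays, with 4 h and 6 h ratios of 2.11 and 0.54 under M-factor, against -1.14 and -2.09 under P-factor. At 4 h and at 6 h of P-factor, and at 4 h of M-factor, each aro2 value came from 1 spot.

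his2, the histidinol dehydrogenase gene of the last step of histidine synthesis, had the highest mean of all members in both courses. Its ratio was 0.96, 1.82 and 1.79 under M-factor, against 0.76, 1.58 and 1.49 under P-factor. Both means passed, at 1.53 ± 0.22 and 1.28 ± 0.22, or 2.88-fold and 2.43-fold higher (limma, adjusted p = 0.000703 and 0.00267). In both courses the 2 h value was the lowest. No protein-coding gene of the gene table overlaps his2. his1, the phosphoribosyltransferase gene of the first step, fell in both courses to -0.72 and -0.87. The his1 call was lost without the 4 h array in either course (adjusted p = 0.0762 and 0.0532) and without the 6 h array of P-factor (adjusted p = 0.0751). his3 and his7 fell with M-factor and were not called with P-factor. The his7 mean of -0.74 was -0.45 without the M-factor 4 h array, and the call was lost (adjusted p = 0.0601). his4 and his5, measured on 5 of the 6 arrays, ranged from -0.75 to -0.05 and from 0.05 to 0.47. map3, the gene for the M-factor receptor of P cells, whose reading frame overlaps that of his6, had means of -0.35 and -0.08 in the time courses that did not pass. On the M over P arrays map3 stood at -1.23 untreated and at -3.53 treated, that is, lower in M cells and more so after treatment.

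All 3 proline genes fell with M-factor, to -1.04 for pro1, -1.02 for pro2 and -0.63 for pro3. With P-factor pro3 alone passed, at -0.46 (limma, adjusted p = 0.0485, and 0.321 without the P-factor 6 h array). pro2, the glutamate kinase gene of the first step, stood at -1.12, -1.28 and -0.66 with M-factor and at -0.02, -0.18 and -0.10 with P-factor. The difference of 0.92 missed the threshold (limma, adjusted p = 0.0503), and passed with time point as a block (adjusted p = 0.0492). It also passed in other fits, among them that without the M-factor 6 h array (adjusted p = 0.0316). It did not pass with any other array left out (limma, adjusted p from 0.0641 to 0.161) or with the spot nearest 0 (adjusted p = 0.141).

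The courses were then compared gene by gene. 28 members (50.0% of those tested) fell and 2 (3.57%) rose with both pheromones, against 10.9% and 11.8% of all genes tested. None was called in opposite directions. Of all genes 0.562% fell with M-factor and rose with P-factor, and 0.269% did the reverse. At such shares 0 of 56 says nothing particular about the members. 11 members (19.6%) fell with M-factor and were not called with P-factor, among them arg82, aro7, his7, met8, pro2 and thr1, against 11.7% of all genes. For 3 members (5.36%), arg4, arg41 and lys7, it was the reverse, against 7.18% of all genes. That a gene passed in one course and not in the other does not show that the courses differed. The test of the difference itself called 2 of the 56 members, arg82 and met8, both higher with P-factor, where 2.57% of all genes were higher and 2.08% lower. With 1 of the 6 arrays left out, met8 was called in none of the fits, where its difference lay between 0.81 and 1.00. arg82 lost the call without the P-factor 4 h or 6 h array, where its difference was 1.28 and 1.26. The calls over all genes dropped from 190 to 13 and 16 in those fits. Across the 56 members the means of the courses had a Pearson r of 0.77, against 0.73 across all genes tested. These are values across genes, which are not independent, measured on one kind of array.

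**Figure D3:**
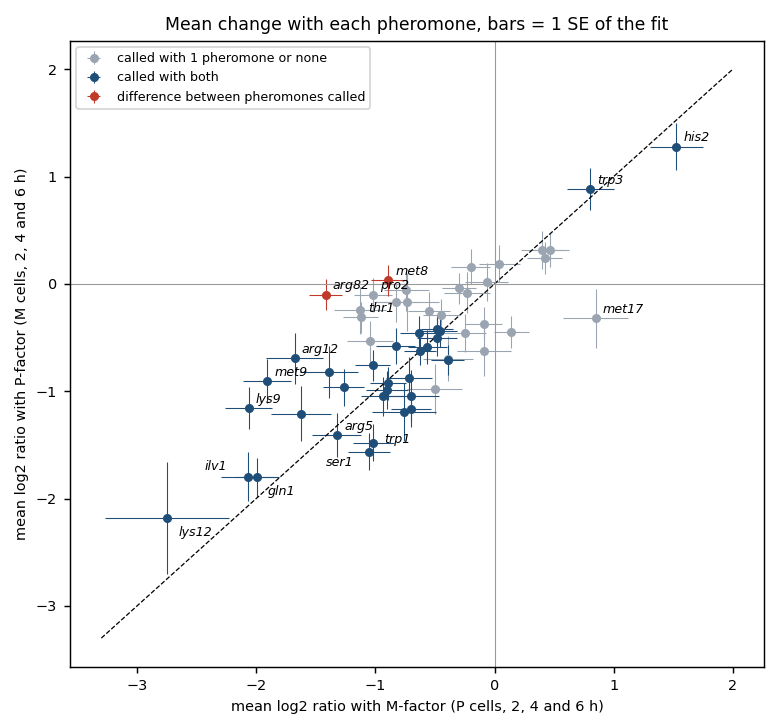
Each point is a tested member, with its mean log2 ratio with M-factor on the x axis and with P-factor on the y axis. Bars are 1 SE of the fit and the dashed line marks equal change. Most points lie in the lower left, arg82 and met8 lie to the left of the line near 0 on the y axis, and his2 and trp3 lie at the upper right.

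M cells and P cells were compared directly on 1 untreated and 1 treated array. On the array of untreated M over P cells the 59 members ranged from -0.40 to 0.64, with a median of 0.05. On the array of treated cells they ranged from -0.45 to 0.25, with a median of -0.03. No member was past 2-fold on either array, against 0.842% of all genes untreated and 0.442% treated, shares at which 0 of 59 says nothing particular about the members. The median size of the ratio was 0.13 untreated and 0.07 treated for the members, and 0.12 and 0.07 for all genes. met10 was the only member past 1.5-fold, at 0.64 in untreated and 0.22 in treated cells, against 2.46% of all genes untreated and 1.03% treated. These are single arrays with no replicate check. The log base of the treated array is likely but not settled, and a reading as log2 would make its values smaller.

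The M over P arrays also give the difference of the courses at 6 h by a second route, as the treated minus the untreated ratio. They are made from cells of the same kinds, so the routes are not independent. For arg82 the P-factor course minus the M-factor course at 6 h was 1.57, while the treated minus the untreated M over P ratio was 0.08. For met8 the values were 0.94 and 0.33. Over the 59 members the median size was 0.32 by the first route and 0.10 by the second, and over all genes it was 0.36 and 0.11. Among the mating type markers the routes differed in both directions. mam1, mam2 and mam3 gave 1.91, 5.36 and 2.67 by the first route and -0.05, 1.40 and 2.04 by the second. map2, the P-factor gene, gave -3.13 and -0.18, while map3 gave 0.06 and -2.31.

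**Figure D4:**
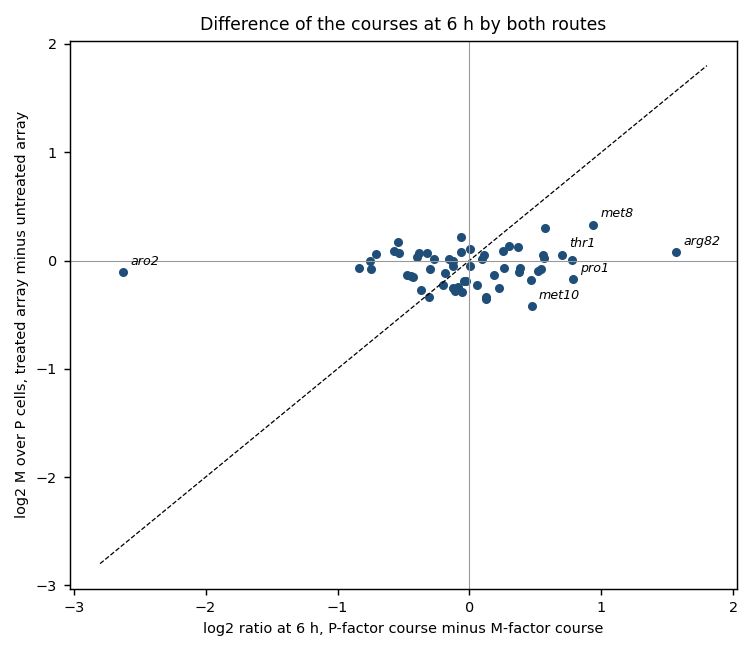
Each point is a member, with the P-factor minus the M-factor log2 ratio at 6 h on the x axis and the treated minus the untreated log2 ratio of M over P cells on the y axis. The dashed line marks equal values. The y values stay between -0.42 and 0.33 while the x values run from -2.62 to 1.57, with arg82 at the right.

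Other genes of amino acid synthesis, listed by hand outside the naming rule, also fell more often than they rose. Of 17 further synthesis genes 13 were tested, and 8 fell and 1 rose with M-factor while 8 fell and 2 rose with P-factor. The called genes with the largest means were maa1, an aspartate aminotransferase gene, at -1.71 and tyr1, the prephenate dehydrogenase gene, at 0.57 with M-factor. With P-factor they were asn1, the asparagine synthase gene, at -1.57 and gdh1, the NADP-linked glutamate dehydrogenase gene, at 0.73. Of 8 genes that control amino acid synthesis or the translation response to starvation, with M-factor 2 rose and 1 fell, and with P-factor 4 rose and 2 fell. With M-factor these shares are near those of all genes given above. hri2, a kinase of translation factor eIF2, rose to 1.48 and 1.02, and gcn20, a translation regulator gene, fell to -1.17 and -0.77.

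Of 9 breakdown genes 7 were tested, and 2 rose and 2 fell with M-factor, again near the shares of all genes, while 2 fell with P-factor. put2, which encodes the second enzyme of proline breakdown, rose with M-factor to 1.35 and stood at -0.02 with P-factor. This difference passed the test (limma, adjusted p = 0.0111). gdh2, the NAD-linked glutamate dehydrogenase gene, fell to -0.84 and -0.59.

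Genes of other biosynthetic groups fell as well. Of 9 purine synthesis genes (ade), 6 fell and 1 rose with M-factor, and 7 fell and 1 rose with P-factor, with medians of -0.71 and -0.99. Of 100 tested ribosomal protein genes, 35 fell and 8 rose with M-factor, with a median of -0.47, and 29 fell and 6 rose with P-factor, with a median of -0.20.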

How the data were processed

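The authors measured spots of the 8 two-colour arrays in Imagene and applied lowess per chip in GeneSpring. The deposited values are log ratios of channel 1 over channel 2, in log2 at 2 h and 4 h of M-factor and in natural log for the other time course arrays. The sources used here do not give the base of the logarithm. For the time course arrays it was found by recomputing mean fold changes listed by the authors. These were met within 2% for 148 of 155 genes with M-factor and 109 of 155 with P-factor, while other combinations of bases met at most 14. The untreated M over P array was not part of this recomputation and was read as natural log. The treated M over P array could not be checked in this way and was read as natural log, which is likely but not settled. Intensities were not used here, signal over background is not known, and precision is limited by how many arrays there are. PCR products do not tell strand.

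Ratios were put on the log2 scale, and the spots of a gene were averaged. Of 11520 spots, 9522 carried 1 gene symbol in the platform annotation, updated through a RefSeq gene table (assembly ASM294v3), 134 carried several and 1864 none. Spots were matched by gene number (9474), synonym (30) or symbol (18), and spots with several symbols were left out. The gene table also gave the spans of neighbouring genes.

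limma 3.58.1 (R 4.3.3) was fitted to the 4093 genes with all 6 time course ratios, with 1 mean per pheromone and a shared spread. The test was two-sided, with Benjamini-Hochberg adjustment over all genes at 0.05, and was tested on simulated data. Same-time deviations from the course means correlated between courses across genes, at 0.35, 0.10 and 0.35 for 2, 4 and 6 h. Other pairs ranged from -0.33 to 0.04. The deviations within a course cancel out by construction, so these pairs are not independent. Time point was also used as a block.

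The members and lists were chosen with earlier results of these data known. The text names the highest and the lowest member of each amino acid group, members past 2-fold or different between pheromones, and the called genes with the largest means of the related lists. Other members were added where their values were of use. Figures were drawn with matplotlib 3.10.9.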

Additional observations from a re-analysis of the deposited data

Results flagged for a closer look

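Among the 56 tested members, arg82 and met8 alone passed the test of P-factor against M-factor in the main analysis, or 3.57%. Over all genes 2.57% were higher and 2.08% lower with P-factor. A count of 2 therefore says nothing particular about the members as a set, and the values below describe these genes only. For arg82 the mean log2 ratio was 1.32 higher with P-factor than with M-factor (limma, adjusted p = 0.0169), and the adjusted p ranged from 0.0131 to 0.116 over 13 alternatives tested against 0. For met8 it was 0.92 higher (limma, adjusted p = 0.0388), with a range from 0.0355 to 0.234. For both genes all 3 P-factor values lay above all 3 M-factor values. The arg82 spots at 6 h of M-factor stood at -2.40 and -0.69, and with the spot nearest 0 in place of the mean the difference was 0.81 for arg82 and 0.46 for met8. The treated minus the untreated M over P ratio was 0.08 for arg82 and 0.33 for met8. Strain, pheromone and array cannot be told apart in these differences.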

How the results depend on the processing

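No named member past the threshold changed direction under an alternative. A change was possible only with arrays centred or scaled, with the spot nearest 0, or with an array that entered the mean left out. The other alternatives kept the same mean, so they say nothing on direction. With M-factor, 44 members were called in the main analysis, 24 with the spot nearest 0, 13 in a test against a 1.5-fold change and between 33 and 38 with 1 array left out. With P-factor, 33 were called in the main analysis, 5 against a 1.5-fold change and between 14 and 34 with 1 array left out, the lowest without the P-factor 4 h array. The calls over all genes dropped too. With M-factor they went from 985 higher and 948 lower to 563 and 477 with the spot nearest 0. Against a 1.5-fold change they were 229 and 192. With P-factor they went from 741 and 750 to 140 and 68 against a 1.5-fold change. The methods' t-test with adjustment called 0 members in either course, and over all genes 5 with M-factor and 6 with P-factor, so it could say little. Its unadjusted p was under 0.05 for 22 and 27 members, and at most 0.01, the methods' threshold, for 5 and 11, all of them lower. Over all genes the unadjusted p was at most 0.01 for 207 higher and 117 lower with M-factor. With P-factor the counts were 244 and 248. The difference between the pheromones was called for 2 members, for 0 with the spot nearest 0 (limma, unadjusted p under 0.05 for 11) or against a 1.5-fold change (unadjusted for 1), and for 0 to 5 with 1 array left out (0 without the P-factor 4 h or 6 h array, unadjusted for 11 and 9, and 5 without the M-factor 6 h array). With time point as a replicate block 4 differences were called, those of arg82, met8, pro2 and thr1, and 45 and 35 members with M-factor and P-factor. Over all genes 190 differences were called in the main analysis, 33 with the spot nearest 0, 10 against a 1.5-fold change and 273 with the block. Past the fold at all times, 6 members with M-factor and 7 with P-factor became 21 and 21 at 1.5-fold and 1 and 1 at 3-fold, and with 1 array left out 8 to 13 with M-factor (13 without the 6 h array) and 9 to 10 with P-factor. On the untreated M over P array 1 member passed 1.5-fold, against 2.46% of all genes. Of the values of single named genes under these alternatives, 985 kept their side of the threshold, 155 lost the call and 8 gained it. Spot values differed widely for some genes, and without intensities it is unknown which spots were near background. The causes of these changes were not tested.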
